A study of Mus musculus with 6 samples.

Results

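Integrin and laminin genes were examined in CT26.mMR1 cells and in a mutant of these cells. The members were all gene symbols made of Itga or Itgb and a number, the lettered alpha subunits Itgad, Itgae, Itgal, Itgam, Itgav, Itgax and Itga2b, and all symbols made of Lama, Lamb or Lamc and a number. They came to 37 of 24346 symbols, of which 26 were integrins (18 alpha and 8 beta subunits) and 11 were laminin chains. A mean of at least 1 FPKM over the 6 samples was reached by 15 of them, 9 integrins and 6 laminins, out of 10597 genes in all at that level. FPKM counts the sequenced fragments of a gene relative to its transcript length and to the size of the library. The symbols Itgb1bp1, Itgb1bp2, Itgb3bp, Itgb2l and Itgbl1 resemble the members in name and were left out.

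RNA sequencing was done on CT26, a mouse colorectal tumor line that had been transduced with a retrovirus carrying mouse MR1, the molecule that presents small metabolites to MAIT cells. The parental group held 3 biological replicates of these MR1-overexpressing cells, called CT26.mMR1. The other group held 3 biological replicates of M8, an MR1-overexpressing mutant obtained by treating these cells with the mutagen ENU, cloning them by limiting dilution, and choosing clones for their effect on a MAIT reporter line and for surface MR1. Both groups therefore overexpressed MR1. The sample titles of both groups also carry the tag cl9, which the labels do not explain. M8 is 1 clone, so that an effect of its mutations and the difference of any 1 clone from the parental cells cannot be told apart.

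The cells were labelled as colon. Of 15 markers of colon epithelium, only Krt18, Krt20 and Lgals4 reached 1 FPKM, while Epcam, Cdh1, Krt19, Cdx2, Slc26a3 and Car1 were listed at 0 in all 6 samples. Krt20 was lower in M8, with means of 17.4 and 11.9 FPKM (adjusted p = 0.00438 in limma), and Krt18 did not pass. Lgals4 had means of 1.68 and 0.68 FPKM and reached 1 FPKM over the 6 samples only through the parental group. Of 10 fibroblast markers, 6 reached that level, and the list summed to between 676 and 720 FPKM in parental cells and between 673 and 706 FPKM in M8, most of it Col1a2. Of these 6, Dcn and Pdgfra were lower and Pdgfrb was higher in M8, with log2 fold changes of -0.38, -0.43 and 0.25 (adjusted p = 0.0245, 0.00903 and 0.00787 in limma). The part of these marker changes in the results on integrins and laminins was not tested. Of 14 leukocyte markers, only Cd68 reached 1 FPKM, and of 11 markers of endothelium and platelets none did. The libraries held an estimated 23.8 to 27.0 M reads in parental cells and 19.4 to 22.0 M in M8, worked out from the steps between low FPKM values with an assumed fragment length of 200 bases. Over all genes tested, 2250 were higher in M8 (21.2%) and 1745 were lower (16.5%) at an adjusted p below 0.1 in limma, and the 3 values of M8 lay all above or all below those of parental cells for 45.2% of genes.

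Integrins are receptors made of 1 alpha and 1 beta subunit that span the plasma membrane and tie the extracellular matrix to the actin cytoskeleton, and the pairing of subunits sets which ligand is bound. Laminins are secreted trimers of an alpha, a beta and a gamma chain that assemble into the sheet of the basement membrane, where integrins containing Itga3, Itga6 or Itga7 bind them through the alpha chain. In colon epithelium these receptors hold the cells to the basement membrane, and tumor cells that have lost epithelial features often use fibronectin and vitronectin receptors as well.

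The expressed members spanned from 208 FPKM for Itgb1 to 1.51 FPKM for Itgb2 in the mean of the 6 samples. Itgb1 was the highest, Itgb7 followed at 125 FPKM and Lamb1 at 75.6 FPKM, and the ranges of these 3 genes over the samples did not overlap. Further down the order, the ranges of Itgb5 and Lamc1, of Lamc1 and Lama5, of Lamb2 and Itga6, of Itga6 and Itga3, and of Lama3 and Itgb2 overlapped, so that the order within these pairs was not resolved. All other neighbours in the order were separated in every sample. FPKM values are per length and can be set side by side between genes, although each rests on the transcript models used to compute it.

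**Figure D1:**
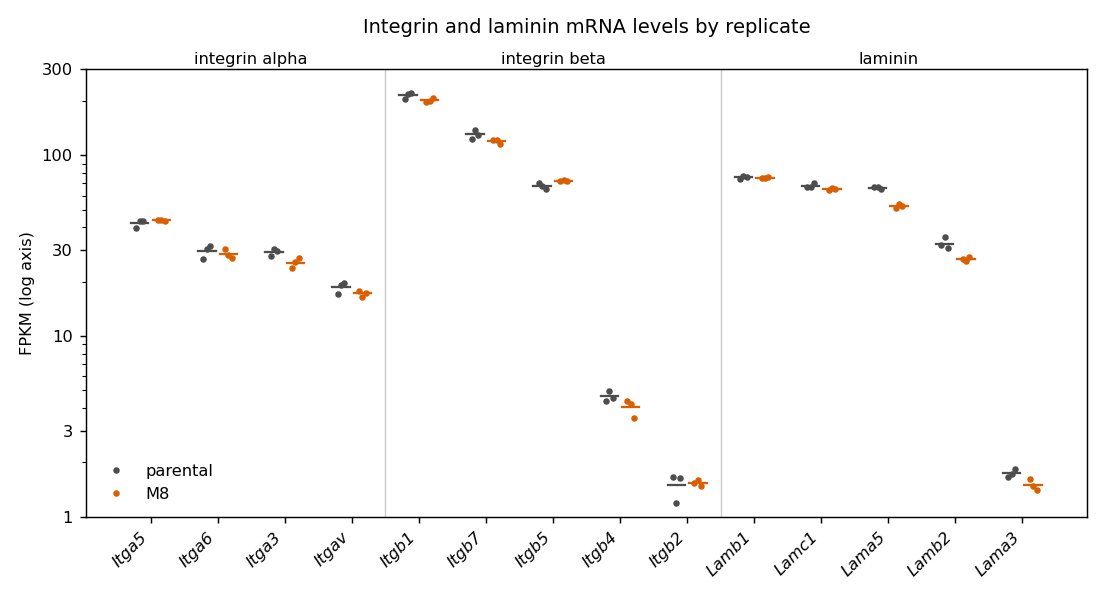
FPKM (log axis) of 14 integrin and laminin genes with a mean of at least 1 FPKM, in 3 parental (grey) and 3 M8 (orange) replicates, with a line at each group's mean. Levels run from Itgb1 at 208 FPKM to Itgb2 at 1.51 FPKM, and Lama5 and Lamb2 are the laminins whose M8 points lie furthest below the parental points.

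Between the lines, none of the 15 expressed members was higher in M8 and 4 were lower: the laminin chains Lama5 and Lamb2 and the integrin subunits Itga3 and Itgb7. The 4 lower members are 26.7% of the 15, against 16.5% of all genes tested, and the 0 higher members stand against 21.2%. The other 11 did not pass, and 5 of the 15 had an unadjusted p below 0.05, against 4349 of the 10597 genes tested. The log2 fold changes ran from -0.33 to 0.10 with a median of -0.11, against 0.01 for all genes tested. The median of the members was -0.17 with upper-quartile scaling, where that of all genes was -0.05, and -0.07 with the GC and length correction. The values of M8 did not overlap those of parental cells for 8 of the 15, against 45.2% of all genes, with M8 above for Itga5 and Itgb5 and below for Itga3, Itgb7, Lama5, Lamb2, Lamc1 and Lama3. All fold changes are on the scale of log2(FPKM + 1), which understates the change of genes with low values. The count of lower members was 2 without parental replicate 2 or M8 replicate 1, where 12.6% and 10.8% of all genes were lower. It was 0 with a minimum fold change of 1.5. With TPM it was 6 and under quantile normalization 7, where 20.8% and 16.8% of all genes were lower. It was 8 under upper-quartile scaling, which also turned the balance over all genes to 13.9% higher and 26.1% lower. A lower value in these bulk samples can mean less RNA per cell or fewer cells that carry it, and these cannot be told apart.

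**Figure D2:**
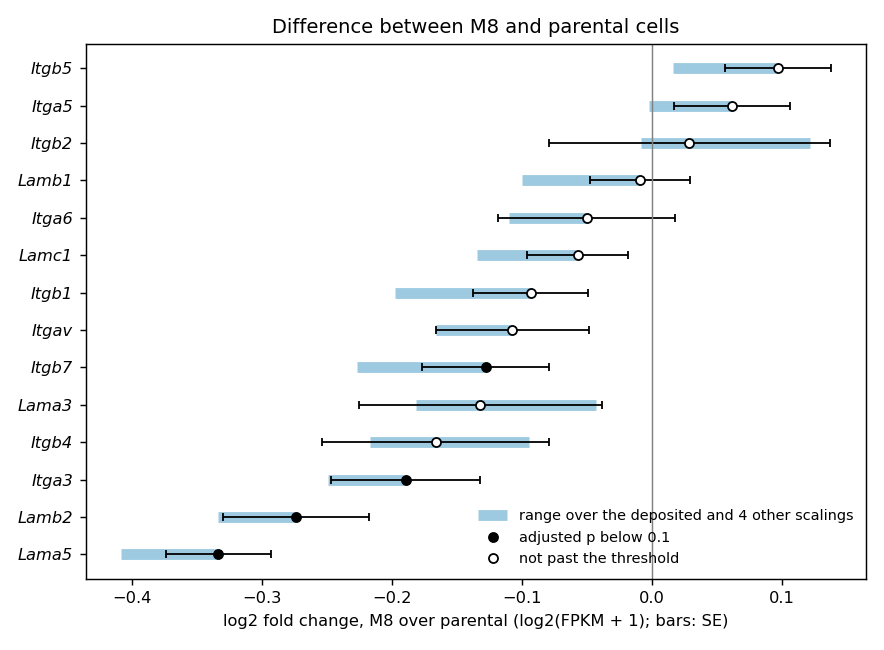
Log2 fold change of M8 over parental cells for 14 expressed members, on log2(FPKM + 1), with the SE as bars, filled points for an adjusted p below 0.1 in limma and blue bands for the range over the deposited and 4 other scalings. Lama5 at -0.33 and Lamb2 at -0.27 lie furthest from 0, and the bands of Itga5 and Itgb2 cross 0.

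Laminin alpha chains carry the sites that integrins bind, and Lama5 was by far the most abundant of them here. Lama5 (chr2:180176373-180225859 of GRCm38, minus strand, 79 exon blocks) measured 67.0, 67.1 and 64.8 FPKM in parental replicates 1 to 3 and 51.1, 54.0 and 52.2 FPKM in M8. The lowest parental replicate lay above the highest M8 replicate. The M8 mean was 0.790 of the parental mean, a log2 fold change of -0.33 (SE 0.04, adjusted p = 0.000767 in limma). This was the largest change of the 15 members, and it passed in every alternative tried except a minimum fold change of 1.5. Lama3, the alpha chain of the laminin found under stratified and glandular epithelia, measured 1.65, 1.71 and 1.85 FPKM in parental cells and 1.62, 1.47 and 1.41 FPKM in M8. Its groups did not overlap, but the log2 fold change of -0.13 had an adjusted p of 0.318 in limma. The remaining alpha chains were close to absent: Lama1 and Lama4 were listed at 0 in all 6 samples, and Lama2 reached at most 0.012 FPKM.

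Lama5 thus made up 97.2 to 97.6% of the summed FPKM of alpha chains in parental cells and 96.9 to 97.4% in M8. The sum itself was 66.6 to 68.8 FPKM in parental cells and 52.7 to 55.4 FPKM in M8, and these ranges did not overlap. The share of Lama5 among alpha chains was therefore much the same in both lines while the amount of alpha chain mRNA was lower in M8.

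Among the beta chains, Lamb1 and Lamb2 were both expressed, and only Lamb2 passed the test. Lamb1 measured 73.8, 77.4 and 76.4 FPKM in parental cells and 74.5, 75.1 and 76.4 FPKM in M8. The groups overlapped, and the log2 fold change was -0.01 (SE 0.04, adjusted p = 0.878 in limma), or -0.10 with quantile normalization, where it passed. Lamb2, the beta chain known from the glomerulus and the neuromuscular junction, lies at chr9:108479736-108490530 on the plus strand. It measured 31.7, 35.3 and 30.6 FPKM in parental cells and 26.6, 26.2 and 27.3 FPKM in M8. All M8 values were below the parental ones, with a log2 fold change of -0.27 (SE 0.06, adjusted p = 0.00699 in limma) and a mean ratio of 0.820. This call, too, was lost only with a minimum fold change of 1.5. Of the summed beta chain FPKM, Lamb2 took 28.4 to 31.1% in parental cells and 25.7 to 26.2% in M8. Lamb3, which joins Lama3 in a trimer, was below the level required for the test, with 0.701, 0.804 and 0.806 FPKM in parental cells and 0.369, 0.594 and 0.505 FPKM in M8.

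The gamma chain Lamc1, shared by most laminins, measured 67.3, 66.6 and 70.1 FPKM in parental cells and 64.7, 66.1 and 65.1 FPKM in M8. The M8 values all lay below the parental ones by a small margin, and the log2 fold change of -0.06 did not pass (SE 0.04, adjusted p = 0.300 in limma). It did pass with quantile normalization and upper-quartile scaling, and was -0.0085 with the GC and length correction (adjusted p = 0.906 in limma). Lamc3 stayed between 0.037 and 0.172 FPKM.

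The abundant laminin chains were Lama5, Lamb1 and Lamc1, which form 1 trimer, and their ratios inside each replicate do not depend on a scaling factor applied to a whole library. The ratio of Lama5 to Lamb1 was 0.908, 0.867 and 0.848 in parental replicates 1 to 3 and 0.685, 0.718 and 0.683 in M8. The ratio of Lama5 to Lamc1 was 0.996, 1.01 and 0.924 in parental cells and 0.790, 0.816 and 0.802 in M8. Alpha chain mRNA was thus close to equal with Lamc1 in parental cells and below it in M8, without overlap. The ratio of Lamb2 to Lamb1 was 0.401 to 0.456 in parental cells and 0.348 to 0.357 in M8, again without overlap.

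**Figure D3:**
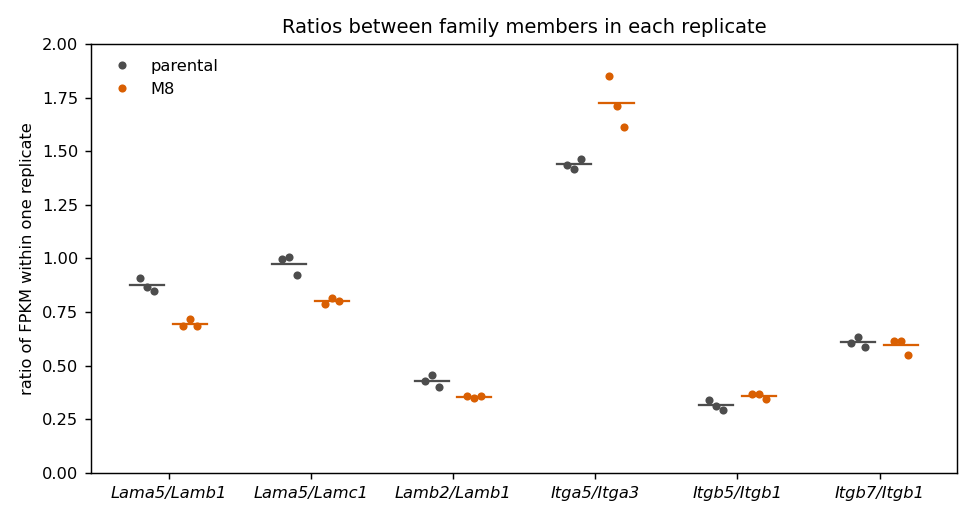
Ratios of FPKM between family members within each replicate, with parental points in grey, M8 points in orange and a line at each group's mean. Lama5/Lamb1 falls between 0.848 and 0.908 in parental cells and between 0.683 and 0.718 in M8, Itga5/Itga3 is higher in M8, and Itgb7/Itgb1 overlaps between the lines.

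The sequences before the start sites of Lama5, Lamb2 and Lamb1 are shown, together with that of Itgb7, the most abundant member that was lower. They were taken from RefSeq (GRCm38.p6), read 5′ to 3′ on the strand of the gene, and end before the first annotated exon base. In the 250 bases before the start, 4 motifs besides the GC box GGGCGG were searched on both strands: the CCAAT box CCAAT, the TATA box TATAAA, the E-box CACGTG and the AP-1 site TGANTCA. Capitals mark each match to any of these, and CCGCCC is the GC box read on the other strand. The stretches are chr2:180225860-180226109 (minus strand) for Lama5, chr9:108479612-108479735 (plus) for Lamb2, chr12:31265043-31265233 (plus) for Lamb1 and chr15:102231945-102232185 (minus) for Itgb7.
Lama5: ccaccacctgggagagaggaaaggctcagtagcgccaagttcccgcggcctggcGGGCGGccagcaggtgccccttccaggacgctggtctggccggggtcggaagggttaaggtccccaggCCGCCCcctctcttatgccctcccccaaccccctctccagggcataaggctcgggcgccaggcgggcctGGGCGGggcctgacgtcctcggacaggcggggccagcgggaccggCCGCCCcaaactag
Lamb2: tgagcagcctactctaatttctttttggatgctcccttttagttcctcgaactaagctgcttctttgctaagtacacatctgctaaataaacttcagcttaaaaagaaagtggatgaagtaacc
Lamb1: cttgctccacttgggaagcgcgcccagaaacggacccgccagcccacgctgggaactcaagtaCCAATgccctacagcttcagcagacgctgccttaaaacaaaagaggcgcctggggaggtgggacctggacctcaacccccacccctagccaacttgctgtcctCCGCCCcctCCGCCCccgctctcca
Itgb7: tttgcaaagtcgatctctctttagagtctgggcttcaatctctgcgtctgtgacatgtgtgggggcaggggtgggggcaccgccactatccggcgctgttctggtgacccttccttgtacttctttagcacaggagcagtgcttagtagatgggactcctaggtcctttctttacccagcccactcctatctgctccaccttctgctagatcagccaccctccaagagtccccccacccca

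The 250 bases before the start of Lama5 held 4 GC boxes and were 72.4% G and C, against a median of 52.4% over 32841 promoters of the same length. The same window of Lamb1 held 2 GC boxes and 1 CCAAT box at 62.0% G and C, and those of Lamb2 (43.6%) and Itgb7 (56.0%) held none of the 5 motifs. For Lamb1, Lamb2 and Itgb7 these values cover the whole window of 250 bases, of which the printed stretch is a part. The GC box was present in 32.7% of all promoters, the CCAAT box in 33.9%, the TATA box in 12.4%, the E-box in 6.02% and the AP-1 site in 6.75%. The 2 laminin genes that fell thus had unlike sequences before their start sites in these letters. Itga3, also lower, had 2 windows, which are not printed. The first held 1 GC box and 1 CCAAT box at 50.8% G and C, and the second 3 GC boxes at 67.6%. A match describes the letters only, and the part of these letters in the changes was not tested. Promoters of 9 of the 15 expressed members were in the RefSeq table.

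Of the alpha subunits that bind laminin, Itga3 was lower in M8 and Itga6 was not called. Itga3 (chr11:95044474-95076801, minus strand, 27 exon blocks), which pairs with Itgb1 and binds laminins rich in Lama5 or Lama3, measured 27.8, 30.4 and 29.5 FPKM in parental cells and 23.8, 25.8 and 27.0 FPKM in M8. The groups did not overlap, though the gap between them was small. The log2 fold change was -0.19 (SE 0.06, adjusted p = 0.0352 in limma), and the adjusted p was 0.110 without parental replicate 2 and 0.129 without M8 replicate 1. Itga6, which pairs with Itgb1 or Itgb4, measured 26.8, 30.4 and 31.4 FPKM in parental cells and 30.5, 28.1 and 26.9 FPKM in M8. These values overlapped throughout, with a log2 fold change of -0.05 (SE 0.07, adjusted p = 0.612 in limma). Itga7, the laminin receptor subunit of muscle, stayed between 0.241 and 0.572 FPKM.

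Of the alpha subunits that recognise the RGD motif of fibronectin and vitronectin, Itga5 and Itgav were expressed at a level that could be tested, and neither passed. Itga5, which with Itgb1 forms the classical fibronectin receptor, was the most abundant alpha subunit. It measured 39.8, 43.2 and 43.2 FPKM in parental cells and 44.0, 44.2 and 43.6 FPKM in M8. The M8 values lay just above the parental ones, and the log2 fold change was 0.06 (SE 0.04, adjusted p = 0.332 in limma), or about 0 (-0.0023) with quantile normalization. Itgav, which pairs with several beta subunits, measured 17.2, 19.2 and 19.6 FPKM in parental cells and 17.8, 16.5 and 17.3 FPKM in M8. Its groups overlapped, with a log2 fold change of -0.11 (SE 0.06, adjusted p = 0.200 in limma). The change passed with TPM, with upper-quartile scaling and without parental replicate 1, and was -0.055 with the GC and length correction (adjusted p = 0.569 in limma). Of the exon bases of Itgav, 5.90% are shared with the antisense transcript Gm13684.

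As shares of the summed alpha subunit FPKM, Itga5 took 34.4 to 35.1% in parental cells and 37.6 to 38.2% in M8, without overlap. Itga3 took 23.5 to 24.5% in parental cells and 20.3 to 23.3% in M8, also without overlap, and the shares of Itga6 overlapped. Inside each replicate, the ratio of Itga5 to Itga3 was 1.43, 1.42 and 1.47 in parental cells and 1.85, 1.71 and 1.62 in M8. The ratio was thus higher in all 3 M8 replicates than in any parental replicate. The ratio of Itga5 to Itga6, the other abundant laminin-binding subunit, overlapped between the lines, at 1.37 to 1.49 in parental cells and 1.45 to 1.62 in M8.

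Of the beta subunits, Itgb1 and Itgb7 made up most of the mRNA. Itgb1, the common partner of most alpha subunits, measured 205, 219 and 221 FPKM in parental cells and 196, 199 and 209 FPKM in M8. The groups overlapped in 1 pair of replicates, and the log2 fold change of -0.09 did not pass (SE 0.04, adjusted p = 0.143 in limma). It passed without parental replicate 1 and with TPM, quantile normalization and upper-quartile scaling, where the change under these scalings was -0.13, -0.20 and -0.15.

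Itgb7 (chr15:102215995-102231944, minus strand, 16 exon blocks) is known from lymphocytes, where it pairs with Itga4 to bind the gut addressin or with Itgae to bind E-cadherin. It measured 124, 139 and 130 FPKM in parental cells and 121, 122 and 115 FPKM in M8. The M8 values all lay below the parental ones, with a log2 fold change of -0.13 (SE 0.05, adjusted p = 0.0782 in limma). The call was lost in 9 of 19 alternatives, among them the leaving out of any replicate other than parental replicate 1, with an adjusted p of up to 0.226. Of its alpha partners, Itga4 was listed at 0 in all 6 samples and Itgae measured 0.274, 0.115 and 0.122 FPKM in parental cells and 0.063, 0.042 and 0.039 FPKM in M8. The partner mRNA was thus lower than Itgb7 by orders of magnitude in every sample. No other gene overlaps Itgb7 in the GENCODE annotation. The leukocyte markers summed to 4.39 to 6.09 FPKM in parental cells and 1.62 to 3.18 FPKM in M8, most of it Cd68, whose mean was 4.31 and 1.76 FPKM (log2 fold change -0.96, adjusted p = 0.00203 in limma), and the mean of Ptprc, the pan-leukocyte antigen, was at most 0.003 FPKM in either line.

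Itgb5, a partner of Itgav in the vitronectin receptor, measured 70.1, 68.0 and 65.2 FPKM in parental cells and 72.1, 73.2 and 72.2 FPKM in M8. The M8 values all lay above the parental ones, but the log2 fold change of 0.10 missed the threshold (SE 0.04, adjusted p = 0.103 in limma). It passed without parental replicate 1, without the filter on low values and with a mean of at least 5 FPKM. Itgb4, which with Itga6 anchors hemidesmosomes, measured 4.38, 4.99 and 4.56 FPKM in parental cells and 4.39, 4.22 and 3.51 FPKM in M8, which overlap. Its log2 fold change was -0.17 (SE 0.09, adjusted p = 0.182 in limma), past the threshold with upper-quartile scaling alone, and 7.66% of its exon bases are shared with the antisense transcript B230344G16Rik. Itgb2, the beta subunit of leukocyte integrins, measured 1.66, 1.20 and 1.63 FPKM in parental cells and 1.54, 1.59 and 1.48 FPKM in M8. It rested on an estimated 79 to 122 reads a sample, and its log2 fold change of 0.03 (SE 0.11, adjusted p = 0.864 in limma) turned negative with upper-quartile scaling, with the GC and length correction and without parental replicate 2.

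**Figure D4:**
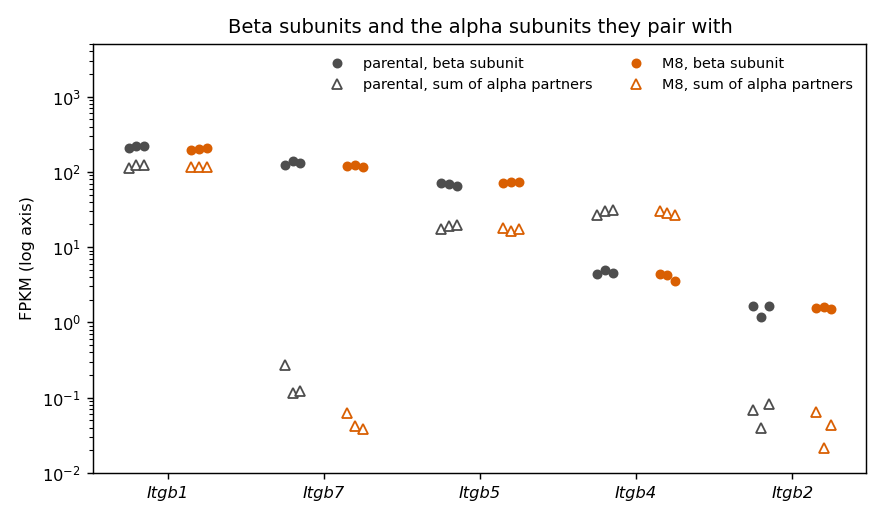
FPKM (log axis) of the 5 expressed beta subunits (filled circles) and the summed FPKM of the alpha subunits each is known to pair with (open triangles), for 3 parental (grey) and 3 M8 (orange) replicates. Itgb1 and its partners lie within a few-fold of each other, and the partners of Itgb7 sum to 0.115 to 0.274 FPKM in parental cells and 0.0388 to 0.0625 FPKM in M8.

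Setting each beta subunit beside the alpha subunits it is known to pair with gave unlike pictures. The alpha partners of Itgb1 summed to 112 to 125 FPKM in parental cells and 115 to 117 FPKM in M8, below Itgb1 itself in every sample. For Itgb5 the partner Itgav was below the beta subunit, whereas for Itgb4 the partner Itga6 was above it. The partners of Itgb2, which are Itgal, Itgam, Itgax and Itgad, summed to 0.0390 to 0.0832 FPKM in parental cells and 0.0217 to 0.0640 FPKM in M8. Of the summed beta subunit FPKM, Itgb1 took 50.5 to 52.3% in parental cells and 49.6 to 52.0% in M8, and Itgb7 took 30.5 to 32.1% and 28.7 to 30.5%. Itgb5 took 15.4 to 17.3% in parental cells and 17.95 to 18.25% in M8, without overlap.

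The other 22 members had means below 1 FPKM, 17 of them integrins and 5 of them laminins. Itga4, Itga8, Itga9, Lama1 and Lama4 were listed at 0 in every sample. The collagen-binding subunits Itga1, Itga2 and Itga11 reached at most 0.055 FPKM, and Itga10 lay between 0.126 and 0.386 FPKM. Itgb3 and Itgb6 reached at most 0.046 FPKM, and Itgb8, which with Itgav activates TGF-beta, lay between 0.384 and 0.700 FPKM.

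The platelet integrin subunit Itga2b stood out among these low genes, as seen only after its values were known. It measured 0.614, 0.582 and 0.767 FPKM in parental cells and 0.210, 0.286 and 0.232 FPKM in M8, an estimated 45 to 67 reads in parental cells and 15 to 18 reads in M8. The groups did not overlap, and the M8 mean was 0.371 of the parental mean. In a fit without the filter on low values, its log2 fold change was -0.41 (SE 0.05, adjusted p = 0.00777 in limma). Its partner Itgb3 stayed at or below 0.046 FPKM in both lines. The markers of endothelium and platelets summed to 1.61 to 2.58 FPKM in parental cells and 1.10 to 2.02 FPKM in M8, 2 of the 11 were at 0 in all 6 samples, and none could be tested. Among the platelet genes of the list, the parental and M8 means were 0.535 and 0.184 FPKM for Gp9, 0.109 and 0.062 FPKM for Gp1ba, 0.773 and 0.459 FPKM for Ppbp and 0.352 and 0.369 FPKM for Pf4. Their part in the Itga2b values was not tested. Lamb3 was the other low member that passed in this fit, with a log2 fold change of -0.25 (adjusted p = 0.0517 in limma).

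The expressed members differed in transcript length and base composition. By the longest GENCODE transcript, Lama5 had 11388 bases and Lama3 10548 bases, against a median of 3380 bases over the genes tested, and Itgb7 had 2683 bases. The GC content ran from 43.5% for Itgav to 60.0% for Itgb4 against a median of 49.6%. The 4 members that were lower all lay at the upper end, with 59.9% for Lama5, 58.8% for Lamb2, 58.0% for Itgb7 and 57.9% for Itga3. When the trend of each library with transcript GC content and length was removed by loess, a step chosen after the values had been seen, the same 4 members passed, with log2 fold changes of -0.27 for Lama5, -0.28 for Lamb2, -0.16 for Itgb7 and -0.19 for Itga3. Itga5 (57.3%), Itgb5 (57.0%) and Itgb4 (60.0%) had a similar GC content and did not pass. Their log2 fold changes without the correction were 0.06, 0.10 and -0.17, the last with an SE of 0.09. The part of GC content in the 4 calls was not tested beyond this correction.

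The genes around these receptors were counted in 4 lists. Basement membrane components and other laminin partners, such as collagen IV, perlecan and the netrins, had 21 of 34 genes at a level that could be tested, of which 0 were higher and 7 were lower (33.3%) in M8, against 21.2% higher and 16.5% lower of all genes tested. Their median was -0.08 on the log2 scale, and -0.15 and -0.14 with quantile normalization and upper-quartile scaling. Col18a1, the collagen that yields endostatin, averaged 29.9 ± 2.3 FPKM in parental cells and 24.3 ± 0.49 in M8 (SD, n = 3; log2 fold change -0.29, adjusted p = 0.00664 in limma). Ntn4, a netrin that binds laminin gamma chains, changed by -0.28 and Col4a5, a collagen IV chain, by -0.26 on the log2 scale (adjusted p = 0.0219 and 0.00396 in limma). Hspg2, Agrn, Col4a2 and Sdc2 also fell. The most abundant genes of the list, Sparc and the laminin-integrin associated tetraspanin Cd151, had log2 fold changes of 0.11 each and did not pass, although Sparc did without parental replicate 3. Without M8 replicate 1 the count of lower genes was 4, and without parental replicate 1 or 3, or with the GC and length correction, 1 gene was higher. With a minimum fold change of 1.5, 0 genes of the list were higher and 0 lower.

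Adhesion machinery, the cytoplasmic proteins that link integrins to actin and signal from them, had more higher than lower genes in M8. Of 43 tested genes of 48, 15 were higher (34.9%), 5 were lower (11.6%) and 23 were not called, with a median of 0.07. Over all genes tested, more were likewise higher (21.2%) than lower (16.5%). Trip6, a zyxin relative, rose from 76.0 ± 3.8 to 98.7 ± 5.9 FPKM (SD, n = 3; 0.37 on the log2 scale, adjusted p = 0.00158 in limma). Parvg and Tgfb1i1 rose by 0.39 and 0.33 on the log2 scale (adjusted p = 0.0223 and 0.00817 in limma), and Flna, which crosslinks actin and binds beta subunits, rose by 0.21. The lower genes included Lims2, Tes, Kank2 and Git1, with Lims2 changing by -0.32 (adjusted p = 0.0473 in limma). The call of Lims2 was lost without parental replicate 2, M8 replicate 1 or M8 replicate 2 and without the filter on low values. With a minimum fold change of 1.5, 0 genes of the list were higher and 0 lower. Actn4, the most abundant of the list, had means of 279 and 293 FPKM and did not pass. The split of 15 higher and 5 lower became 9 and 7 with quantile normalization and 11 and 9 with upper-quartile scaling. Of all genes tested, 17.2% were higher and 16.8% lower with the former, and 13.9% and 26.1% with the latter. The median of the list was 0.04 and 0.01 under these scalings, where that of all genes was -0.00096 and -0.05. Flna did not pass with quantile normalization.

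**Figure D5:**
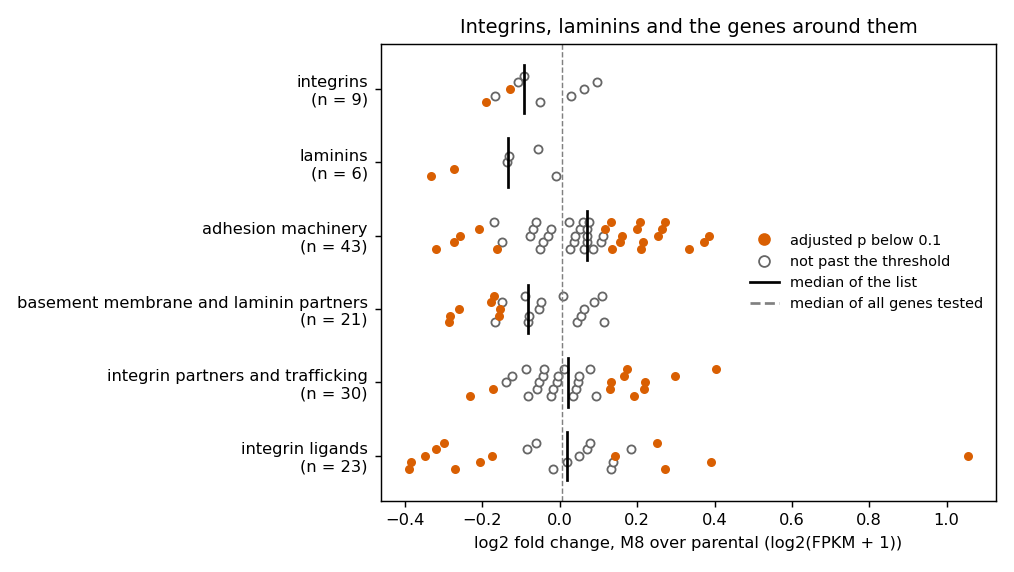
Log2 fold change of M8 over parental cells (log2(FPKM + 1)) for the tested integrins, laminins and genes of 4 related lists, with orange points for an adjusted p below 0.1 in limma, a black line at each list's median and a dashed line at the median of all genes tested. Laminins and their basement membrane partners have no orange point above 0, and adhesion machinery has 15 above and 5 below.

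Integrin ligands other than laminins moved in both directions. Of 23 tested genes of 51, 5 were higher (21.7%, against 21.2% of all genes) and 8 were lower (34.8%, against 16.5%). The median of 0.02 turned negative with TPM, quantile normalization and upper-quartile scaling, at -0.016, -0.015 and -0.036. The medians of all genes tested were -0.028, -0.00096 and -0.049 under these scalings. Fibronectin, Fn1, the ligand of the Itga5 and Itgb1 receptor, fell from 622 ± 22 to 488 ± 17 FPKM (SD, n = 3; log2 fold change -0.35, adjusted p = 0.000917 in limma). Osteopontin, Spp1, the most abundant of the list and a ligand of Itgav receptors, fell from 2106 ± 94 to 1612 ± 66 FPKM (SD, n = 3; -0.39, adjusted p = 0.000979 in limma). Adam15, a membrane protein with an RGD motif, changed by -0.39 (adjusted p = 0.00209 in limma). The largest rise was that of Fbln5, an elastic fibre protein with an RGD motif, from 11.9 ± 0.54 to 25.9 ± 0.64 FPKM (SD, n = 3; 1.06, adjusted p = 1.96e-05 in limma). Thbs1 and Ctgf rose by 0.39 and 0.27 on the log2 scale (adjusted p = 0.0062 and 0.00355 in limma). With a minimum fold change of 1.5, only Fbln5 was still called in this list.

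Of proteins that associate with integrins at the membrane or carry them through endosomes, 30 of 33 could be tested, and 9 were higher (30%) and 2 were lower (6.67%), against 21.2% and 16.5% of all genes tested. The median of 0.02 turned negative with the same 3 scalings, at -0.014, -0.023 and -0.038, where that of all genes was -0.028, -0.00096 and -0.049. Slc3a2, the CD98 heavy chain that binds beta subunits, rose from 164 ± 3.7 to 217 ± 2.0 FPKM (SD, n = 3; 0.40, adjusted p = 0.000206 in limma). Ap2m1, an adaptor subunit of endocytosis, and Arf6, a small GTPase of integrin recycling, rose by 0.30 and 0.22 on the log2 scale (adjusted p = 0.000979 and 0.00957 in limma). The tetraspanin Cd81 changed by -0.23 (adjusted p = 0.00773 in limma), and the call of the other lower gene, Rab4a, was lost in 9 of 19 alternatives. The most abundant genes were Cd63, which had means of 851 and 931 FPKM and whose call was lost with TPM, quantile normalization, upper-quartile scaling and without M8 replicate 1 or 3, and Bsg, which passed only without parental replicate 1. The split of 9 higher and 2 lower became 5 and 5 with quantile normalization and 6 and 6 with upper-quartile scaling. Of all genes tested, 17.2% were higher and 16.8% lower with the former, and 13.9% and 26.1% with the latter. With a minimum fold change of 1.5, 0 genes of the list were higher and 0 lower.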

How the data were processed

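Total RNA of 3 parental and 3 M8 samples was sequenced as stranded mRNA libraries in 101-base single reads and mapped to mm10 by the authors. The authors deposited FPKM values of 24346 symbols per sample; the submitters' processing notes list TopHat2 2.1.1, Bowtie2 2.2.8, SAMtools 0.1.18 and Cuffdiff 2.2.1, and the annotation and filters are not given in the sources used here. The read counts behind the study's own comparison were not used here.

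Genes with a mean of at least 1 FPKM were compared on log2(FPKM + 1) in limma 3.58.1 under R 4.3.3, by lmFit and eBayes with a trend, without covariates, with Benjamini-Hochberg adjustment over 10597 genes and a threshold of 0.1. An exact two-sided permutation test of single members cannot go below p = 0.1 with 3 against 3 samples. Shares and ratios were computed per replicate and not tested. Coordinates came from GENCODE M21 on GRCm38, which is mm10. Reads per gene are estimates from the longest coding transcript.

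Expressed members were named, except 1 that is not reported here (nor is 1 gene of a list), and in each list the 3 genes with the largest called change in each direction and the 2 most abundant; further called genes, Itga2b, Lamb3 and single markers were named after their values were seen. The members and lists were chosen with earlier results of these data known. Alternatives were pseudocounts of 0.1 and 0.5, no filter or a mean of at least 5 FPKM, TPM, quantile normalization, upper-quartile scaling, median centring, no trend in eBayes, a threshold of 0.05, a minimum fold change of 1.5, a replicate block and each replicate left out. A loess correction for GC content and length (span 0.5, 10212 of 10597 genes with both values) was added once the values were known. The limma fit with a trend was tested on simulated data, and the alternative fits, scalings and corrections were not. Other steps used Python 3.11.15 with scipy 1.17.1, pandas 2.3.3 and, for plots, matplotlib 3.10.9.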

Additional observations from a re-analysis of the deposited data

How the results depend on the processing

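The count of members lower in M8 was 4 with the settings of the report, 7 with quantile normalization, 8 with upper-quartile scaling, 0 with a minimum fold change of 1.5, and 2 to 6 when 1 replicate was left out, with 2 without parental replicate 2 or M8 replicate 1. The count of higher members was 0, and 1 (Itgb5) without a filter, with a mean of at least 5 FPKM and without parental replicate 1, so that it ranged from 0 to 1 when 1 replicate was left out. Lama5 and Lamb2 passed in 18 of 19 alternatives each, Itga3 in 16 and Itgb7 in 10. Changes of sign were seen in genes that had not passed with the settings of the report. Itga5 was -0.0023 with quantile normalization, Itgb2 was -0.0084 with upper-quartile scaling and -0.0048 with the GC and length correction, Actn4 was -0.042 with quantile normalization, and leaving out 1 replicate gave ranges of -0.060 to 0.077 for Itgb2, -0.028 to 0.0052 for Lamb1 and -0.21 to 0.031 for Bsg. The median of the members, -0.11, was -0.17 with upper-quartile scaling, -0.07 with the GC and length correction and -0.03 without a filter, where 32 members entered. With the replicate number as a block, 0 members were higher and 4 lower, the same genes, and 2171 and 1688 genes in all were called. Samples with the same number did not deviate together (r = 0.1, -0.106 and -0.0326), so the numbers were not taken as pairs. The medians of the integrin ligands and of the integrin partners turned negative with TPM, quantile normalization and upper-quartile scaling (-0.02, -0.02 and -0.04 for ligands and -0.01, -0.02 and -0.04 for partners). The medians of all genes tested were -0.03, -0.00096 and -0.05 under these 3 scalings. The causes of these changes were not tested. With 3 samples a group, small differences such as those of Itgb5 and Itgb1 were near the limit of the test, and the depth limits Itgb2 most, where counting error alone is about 11.3% at the lowest estimated read number.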
